A study of Rattus norvegicus with 22 samples.

Results

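The mevalonate arm is the opening stretch of cholesterol synthesis, and 8 of its enzyme genes, listed in pathway order as Acat2, Hmgcs1, Mvk, Pmvk, Mvd, Idi1, Fdps and Ggps1, were followed through RNA-seq counts of rat hippocampus. The members were taken by name from the pathway. All 8 were present among the 17172 genes of the count table and all 8 passed the filter on low counts, which left 12875 genes for testing. Raw counts of the members ran from 76 for Acat2 to 10062 for Hmgcs1. The 8 genes do not cover every step of the arm.

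The samples were ipsilateral hippocampi of 14 adult male Sprague-Dawley rats, each an animal of its own. Traumatic brain injury (TBI) was a moderate lateral fluid percussion, a fluid pulse delivered onto the exposed dura, and sham rats went through the same anesthesia and surgery without the pulse. Tissue was taken from 2 sham and 4 TBI rats at day 1, and from 4 sham and 4 TBI rats at day 14. All groups therefore share the operation, and a rat without surgery is not among the groups used here.

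Acat2 joins acetyl-CoA units into acetoacetyl-CoA, and Hmgcs1 adds a further unit to give HMG-CoA, from which mevalonate is made. Mvk and Pmvk phosphorylate mevalonate in turn, and Mvd decarboxylates the product to isopentenyl pyrophosphate, which Idi1 converts to its isomer. Fdps couples these units into farnesyl pyrophosphate, the branch point to sterols, dolichol, ubiquinone and farnesylated proteins, and Ggps1 extends it to the geranylgeranyl group that anchors small GTPases in membranes. The blood-brain barrier keeps plasma cholesterol out, so the brain makes its own, largely in oligodendrocytes and astrocytes, and the transcription factor SREBP-2 (gene Srebf2) drives most of these genes when sterols in the endoplasmic reticulum run low.

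The promoters of the 3 members on which the results turn are shown with the NF-Y box, the CCAAT letters bound by the SREBP partner NF-Y, in capitals on either strand (CCAAT or its complement ATTGG). The sequences are from RefSeq on build GRCr8, 5′ to 3′ on the strand of the gene, from 250 bases before to 50 bases after the annotated start. Hmgcs1 lies at chr2:53382054-53382353 on the plus strand, Idi1 at chr17:66547475-66547774 on the minus strand and Fdps at chr2:176804767-176805066 on the minus strand.
Hmgcs1: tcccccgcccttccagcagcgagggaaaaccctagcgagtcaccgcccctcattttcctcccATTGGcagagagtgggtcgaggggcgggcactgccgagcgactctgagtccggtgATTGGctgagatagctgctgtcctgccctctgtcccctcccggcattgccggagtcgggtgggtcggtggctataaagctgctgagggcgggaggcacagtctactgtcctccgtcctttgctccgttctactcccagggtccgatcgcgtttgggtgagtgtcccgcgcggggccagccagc
Idi1: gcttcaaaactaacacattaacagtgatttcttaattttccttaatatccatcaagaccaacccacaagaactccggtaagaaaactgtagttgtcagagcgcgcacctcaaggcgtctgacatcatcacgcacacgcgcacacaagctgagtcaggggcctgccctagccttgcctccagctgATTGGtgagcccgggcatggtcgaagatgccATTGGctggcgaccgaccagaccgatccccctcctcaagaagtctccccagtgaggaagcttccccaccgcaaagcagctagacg
Fdps: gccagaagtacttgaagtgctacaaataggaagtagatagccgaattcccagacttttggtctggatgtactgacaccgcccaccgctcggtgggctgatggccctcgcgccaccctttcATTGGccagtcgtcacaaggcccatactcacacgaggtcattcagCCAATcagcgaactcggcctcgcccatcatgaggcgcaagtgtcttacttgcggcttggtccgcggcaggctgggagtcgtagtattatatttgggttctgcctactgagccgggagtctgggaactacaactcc

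Each of these windows held 2 NF-Y boxes. In Hmgcs1 they began 188 and 133 bases before the start, in Idi1 66 and 35 bases before it, and in Fdps 130 and 85 bases before it. Windows were at hand for 7 members, all but Pmvk, and 6 of the 7 held an NF-Y box, against 37.5% of all 33469 windows of the same length. Mvk held 5, Mvd held 2, Ggps1 held 1 and Acat2 held 0. The GC box GGGCGG, the letters bound by Sp1, was found on either strand in 5 of 7 members, against 33.1% of all windows, and was missing from the Idi1 and Ggps1 windows. The sterol regulatory element core TCACNCCAC, read on both strands, was found in 0 of 7 members and in 1.12% of all windows, which says only that these letters are not in these windows. No NF-Y box overlapped a GC box in the windows of the members.

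Levels are given as CPM, counts scaled to a common library size and corrected for library composition, with a prior count of 2, and differences as log2 fold changes with their standard error (SE) from a fit of all 14 rats with edgeR's quasi-likelihood test. An adjusted p is Benjamini-Hochberg adjusted over the 12875 tested genes, and a gene is called changed where it is under 0.05. Total counts were 15065540 to 23743703 per rat. Markers of the choroid plexus, the secretory epithelium that borders the hippocampus, set 3 rats apart. The summed level of the 12 markers was 10917 CPM in sham day 1 replicate 1, and 2058 and 8673 CPM in TBI day 14 replicates 2 and 3, against 117 to 247 CPM in the other 11 rats. One of these markers, Otx2, had 0 counts in every rat. The members and the calls that these 3 rats enter are given without them as well. In bulk tissue, fewer cells of a type and less RNA per cell cannot be told apart.

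At day 14 after injury, 2 transcripts of the arm were lower in TBI than in sham rats. Hmgcs1, which makes HMG-CoA, fell by 46.6% (95% confidence interval of the log2 fold change -1.23 to -0.58). Fdps, at the branch point of the arm, fell by 32.0% (95% confidence interval of the log2 fold change -0.82 to -0.30). These 2 of 8 members were called down and 0 of 8 were called up, where 0.365% of all tested genes were called down and 4.07% up. The fitted log2 fold change was below 0 for all 8 members, with a median of -0.49, beside a median of -0.03 over all tested genes. Unadjusted p was under 0.05 for 5 members, and for 1162 tested genes up and 551 down.

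Hmgcs1 stood at 254, 265, 325 and 275 CPM in the 4 sham rats of day 14 and at 130, 146, 166 and 154 CPM in the 4 TBI rats. Every injured rat was below every sham rat by a wide margin. The log2 fold change was -0.91 (SE 0.15, n = 4 and 4, edgeR adjusted p = 0.00194), and it stayed called without any 1 rat.

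Fdps was even across the sham rats of day 14, at 54.6, 56.3, 57.1 and 56.2 CPM, and lower in the TBI rats, at 35.5, 44.3, 37.2 and 35.6 CPM. The groups did not overlap, and the highest TBI rat was replicate 2, one of the rats with high choroid plexus markers. The log2 fold change was -0.56 (SE 0.12, edgeR adjusted p = 0.0130). The call was lost without TBI day 14 replicate 1 (adjusted p = 0.0550) or replicate 4 (adjusted p = 0.0588). RefSeq names 5 further loci after Fdps, 3 after Acat2 and 1 after Idi1, mostly named as pseudogenes, so the counts of these genes are uncertain as far as shared reads could be split.

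Idi1, which makes the reactive isomer that starts chain building, was at 17.5, 16.1, 20.8 and 18.5 CPM in sham rats of day 14 and at 9.72, 10.5, 14.5 and 10.7 CPM in TBI rats. Again no TBI rat reached the lowest sham rat. Its log2 fold change of -0.68 (SE 0.20) missed the threshold with edgeR (adjusted p = 0.0794) and passed it with DESeq2 (adjusted p = 0.0263), and also without TBI day 14 replicate 3 (edgeR adjusted p = 0.0441).

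Mvd, the decarboxylase, was at 25.8, 27.3, 27.9 and 24.1 CPM in sham and at 18.9, 18.6, 21.4 and 19.6 CPM in TBI rats of day 14. The groups did not overlap, with a log2 fold change of -0.42 (SE 0.13, edgeR adjusted p = 0.10, DESeq2 adjusted p = 0.0341). Acat2, the thiolase, was the member with the fewest counts, at 9.28, 11.4, 12.8 and 9.41 CPM in sham and 5.15, 6.20, 8.30 and 8.60 CPM in TBI rats. Its groups were also apart, though by less than 1 CPM, and its log2 fold change was -0.61 (SE 0.21, edgeR adjusted p = 0.160). In all, every TBI rat was below every sham rat of day 14 for 5 of 8 members (Acat2, Hmgcs1, Mvd, Idi1 and Fdps), and for 5.86% of all tested genes.

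The other 3 members overlapped between the groups and did not pass the test. The mevalonate kinase gene Mvk averaged 27.1 ± 2.63 CPM (SD, n = 4) in sham and 21.8 ± 3.34 CPM (n = 4) in TBI rats of day 14, with an edgeR adjusted p of 0.686. Pmvk, which adds the next phosphate, averaged 37.0 ± 2.91 and 34.4 ± 4.27 CPM (adjusted p = 0.881). Ggps1, on the protein prenylation branch, averaged 19.0 ± 1.86 and 16.9 ± 1.66 CPM (adjusted p = 0.787). The 95% intervals of their log2 fold changes, from -0.81 to 0.17 for Mvk, -0.43 to 0.21 for Pmvk and -0.51 to 0.17 for Ggps1, leave room for a decrease as large as that of Mvd in each.

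**Figure D1:**
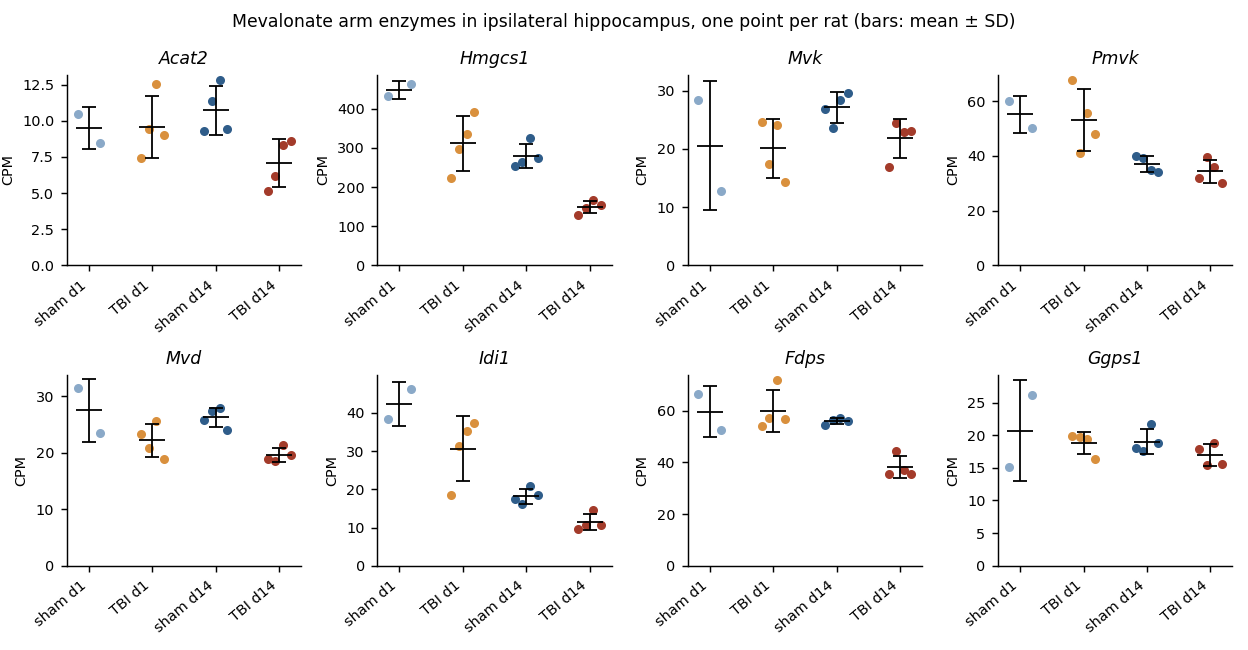
CPM (linear axis from 0) of each of the 8 enzyme genes in the 14 rats, with a point per rat in replicate order and the mean ± SD of each group as bars. In TBI day 14 the points of Acat2, Hmgcs1, Mvd, Idi1 and Fdps lie below all 4 sham day 14 points, while those of Mvk, Pmvk and Ggps1 overlap with them.

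Markers of other cell types moved as well. Of 7 microglia markers, 6 were called up at day 14, where 4.07% of all tested genes were called up and 0.365% down. The summed level of the microglia markers was 364 to 462 CPM in sham and 853 to 1528 CPM in TBI rats. Of 6 astrocyte markers tested, 1 was called up, Gfap, the filament protein of reactive astrocytes (log2 fold change 2.06), while the other 5 lay between -0.24 and 0.60 and the median was 0.18; the sum, to which Gfap belongs, was 3315 to 4332 CPM in sham and 6782 to 10515 CPM in TBI rats. None of the 8 neuron markers, 7 oligodendrocyte markers or 6 endothelium markers tested was called at day 14, and the oligodendrocyte markers summed to 14987 to 24117 CPM in sham and 10784 to 19280 CPM in TBI rats. The part of these cells in the decrease of Hmgcs1 and Fdps was not tested. Choroid plexus markers were higher in TBI for all 11 tested and called for 1, and with the 3 high rats left out, the same 2 members were called, Hmgcs1 at -0.95 (edgeR adjusted p = 0.0185) and Fdps at -0.64 (adjusted p = 0.0254). The values of those not called were then -0.82 for Idi1 (adjusted p = 0.116), -0.62 for Acat2, -0.43 for Mvd, -0.42 for Mvk, -0.23 for Pmvk and -0.17 for Ggps1.

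One day after injury, 0 of 8 members were called in either direction, where 11.2% of all tested genes were called up and 7.93% down. Unadjusted p was under 0.05 for 1 member and for 2236 genes up and 2193 down, and DESeq2 called 1 member, Hmgcs1. The median log2 fold change of the members was -0.10, beside -0.02 over all tested genes.

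Hmgcs1 was at 432 and 464 CPM in the 2 sham rats of day 1 and at 223, 298, 335 and 391 CPM in the 4 TBI rats, which were all below both sham rats. The log2 fold change was -0.52 (SE 0.18, n = 2 and 4), with an edgeR adjusted p of 0.0584 and a DESeq2 adjusted p of 0.0319. Without TBI day 1 replicate 4, the TBI rat nearest to sham, it was -0.65 (edgeR adjusted p = 0.0168). Without TBI replicate 1, the lowest rat, it was -0.39 (adjusted p = 0.0814), without sham replicate 2 it was -0.47 (adjusted p = 0.284), and without the 3 rats high in choroid plexus markers -0.59 (adjusted p = 0.11).

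Idi1 was at 38.3 and 46.4 CPM in sham and at 18.5, 31.4, 35.3 and 37.4 CPM in TBI rats of day 1. The groups were apart, with TBI replicate 1 lowest for both Idi1 and Hmgcs1, and the log2 fold change was -0.47 (SE 0.23, edgeR adjusted p = 0.175). Without TBI replicate 1, which also had the lowest summed neuron markers of the group (2182 CPM, against 4556 to 5232 CPM in the other 3 rats), it was -0.29 (adjusted p = 0.287), and without the 3 rats high in choroid plexus markers -0.61 (adjusted p = 0.147). Hmgcs1 and Idi1 were the 2 of 8 members with every TBI rat below every sham rat, an order seen for 14.1% of all tested genes.

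The remaining 6 members overlapped between the groups of day 1. Mvd was at 31.4 and 23.5 CPM in sham and 18.9 to 25.6 CPM in TBI rats, with a log2 fold change of -0.31 (SE 0.16, edgeR adjusted p = 0.178). The log2 fold changes of Acat2, Mvk, Pmvk, Fdps and Ggps1 lay between -0.14 and 0.02. The 2 sham rats of day 1 differed widely in Mvk, at 28.4 and 12.7 CPM, and in Ggps1, at 15.2 and 26.2 CPM, and the rat with high Mvk and low Ggps1 was replicate 1, the one with high choroid plexus markers. Without it, the log2 fold change of Mvk at day 1 moved from -0.03 to 0.67 and that of Ggps1 from -0.14 to -0.48, and 0 of 8 members were called. At day 1, 5 of 8 neuron, 2 of 7 oligodendrocyte and 9 of 11 choroid plexus markers were called down. Over all tested genes 7.93% were called down and 11.2% up. The choroid plexus sum was 10917 CPM in sham replicate 1, 211 CPM in sham replicate 2 and 117 to 149 CPM in TBI rats. Microglia markers had 2 of 7 up and 2 down, and endothelium markers 1 of 6 up. Of 6 astrocyte markers 1 was called up, Gfap (log2 fold change 3.10), and the median was -0.21. The astrocyte sum, to which Gfap belongs, was 3676 to 5533 CPM in sham and 10209 to 16210 CPM in TBI rats. Summed neuron markers were 5660 to 8602 CPM in sham and 2182 to 5232 CPM in TBI rats. The part of these cells in the values of Hmgcs1 and Idi1 was not tested.

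**Figure D2:**
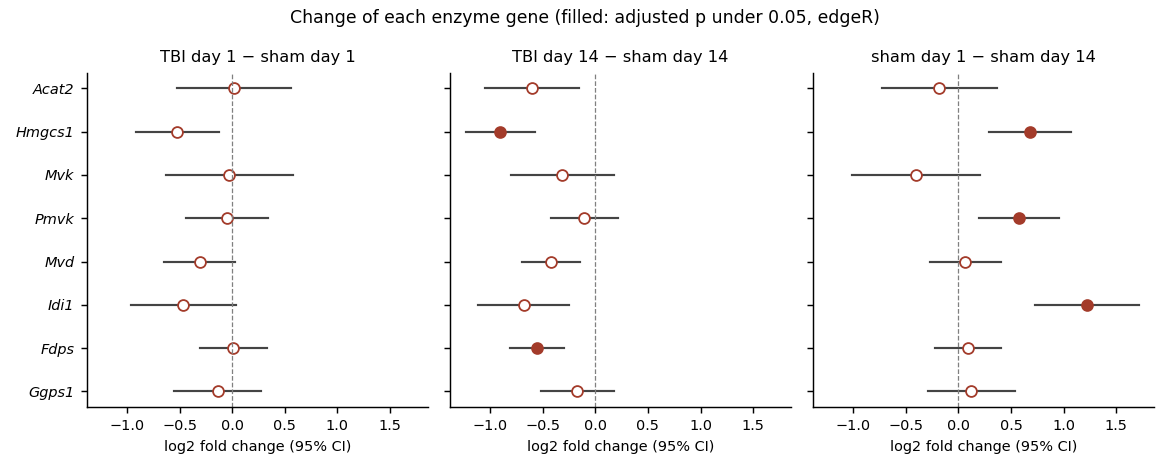
Log2 fold changes (horizontal axis) of the 8 members with 95% confidence intervals as lines, for TBI against sham at day 1, TBI against sham at day 14, and sham day 1 against sham day 14, with filled points where the edgeR adjusted p is under 0.05. All 8 points of the day 14 panel lie left of 0 with Hmgcs1 and Fdps filled, none is filled at day 1, and Hmgcs1, Pmvk and Idi1 are filled to the right of 0 between the sham groups.

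Whether the injury acted differently at the 2 days was tested as the TBI effect at day 14 minus the TBI effect at day 1. None of the 8 members was called by edgeR, where 1.44% of all tested genes were called up and 2.24% down, and DESeq2 called 0 as well, as did edgeR without the 3 rats high in choroid plexus markers. Unadjusted p was under 0.05 for 1133 tested genes up and 1344 down and for 1 member, Fdps, with an injury effect of 0.01 (log2) on the early and -0.56 on the late day. The difference of -0.57 (SE 0.19) had an edgeR adjusted p of 0.119, and was -0.81 (adjusted p = 0.0976) without the 3 rats. For Hmgcs1 the difference was -0.38 (95% interval -0.90 to 0.13) and for Idi1 -0.22 (-0.88 to 0.45), so the call of Hmgcs1 at day 14 alone does not show a different effect at day 1.

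The sham groups differed from each other in 3 of the 8 members. Idi1 averaged 42.3 ± 5.69 CPM (SD, n = 2) at day 1 and 18.2 ± 1.97 CPM (n = 4) at day 14, which was 2.33-fold higher at day 1 (log2 fold change 1.22, SE 0.23, edgeR adjusted p = 0.00452). Hmgcs1 was higher by 0.68 (SE 0.18, adjusted p = 0.0199) and Pmvk by 0.58 (SE 0.18, adjusted p = 0.0373). In these 3 every sham rat of day 1 was above every sham rat of day 14, as for 21.3% of all tested genes, and of all genes 11.3% were called up and 7.88% down in this comparison. The difference in Idi1 stayed called without any 1 rat and without the 3 rats high in choroid plexus markers (1.36, adjusted p = 0.0152). That of Pmvk was lost without any 1 of the 6 rats, and that of Hmgcs1 without sham day 1 replicate 2 or sham day 14 replicate 1, 2 or 4 (adjusted p = 0.0503 to 0.116) and without the 3 rats together (0.74, adjusted p = 0.0645). Without sham day 1 replicate 1, Mvk was called lower at day 1 (-1.10, adjusted p = 0.0265). Day after surgery and any difference in how the groups were handled cannot be told apart here.

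The study took sham day 14 as the baseline of its time courses, and against it TBI day 1 had 2 of 8 members up and 0 down, where 25.0% of all tested genes were called up and 21.0% down. Idi1 was higher by 0.75 on the log2 scale (SE 0.20, edgeR adjusted p = 0.00634), although TBI day 1 replicate 1, at 18.5 CPM, lay inside the sham day 14 range. Pmvk was higher by 0.52 (SE 0.15, adjusted p = 0.0103), with 41.1 to 67.9 CPM in TBI day 1 against 34.3 to 39.8 CPM in sham day 14, the 1 of 8 members with every rat higher (22.2% of all tested genes). This comparison shares its sham rats with those of day 14, and against sham of the same day the same genes at day 1 had log2 fold changes of -0.47 for Idi1 and -0.05 for Pmvk. The sign for Idi1 and Hmgcs1 in TBI day 1 thus differed with the sham group used, Hmgcs1 being at 0.16 (adjusted p = 0.417) against sham day 14 and at -0.52 against sham day 1.

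Across rats the members did not vary as 1 block. Hmgcs1 and Idi1 followed each other most closely of the 28 pairs, with a Pearson r of 0.95 (Spearman correlation 0.96) over 14 rats on the log2 CPM scale and 0.92 (Spearman 0.87) after the group means were subtracted. Without the 2 rats farthest from the median of Hmgcs1 the r over rats was 0.92. Without the 3 rats high in choroid plexus markers it was 0.93 over rats and 0.94 within groups. The pair was chosen for its value, so these are descriptions. Both are steps that build and isomerise the carbon units, and they are separated in the pathway by Mvk, Pmvk and Mvd, with which Hmgcs1 had r of -0.26, -0.47 and -0.15 after the group means were subtracted.

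Of the 28 pairs, 4 had an r over 0.6 after subtraction of group means. Besides Hmgcs1 and Idi1 these were Mvk and Mvd at 0.77 (0.68 without the 3 rats high in choroid plexus markers), Acat2 and Hmgcs1 at 0.61 (0.63 without them) and Mvk and Fdps at 0.60 (0.30 without them, so that this value rests on those rats). Acat2 was about as close to Idi1 (0.54) as to Mvd (0.57). Fdps and Hmgcs1 had an r of 0.83 over rats and of 0.22 within groups (0.41 without the 3 rats). Within each rat all genes share the same library, depth and cell mixture, which also enter these values.

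**Figure D3:**
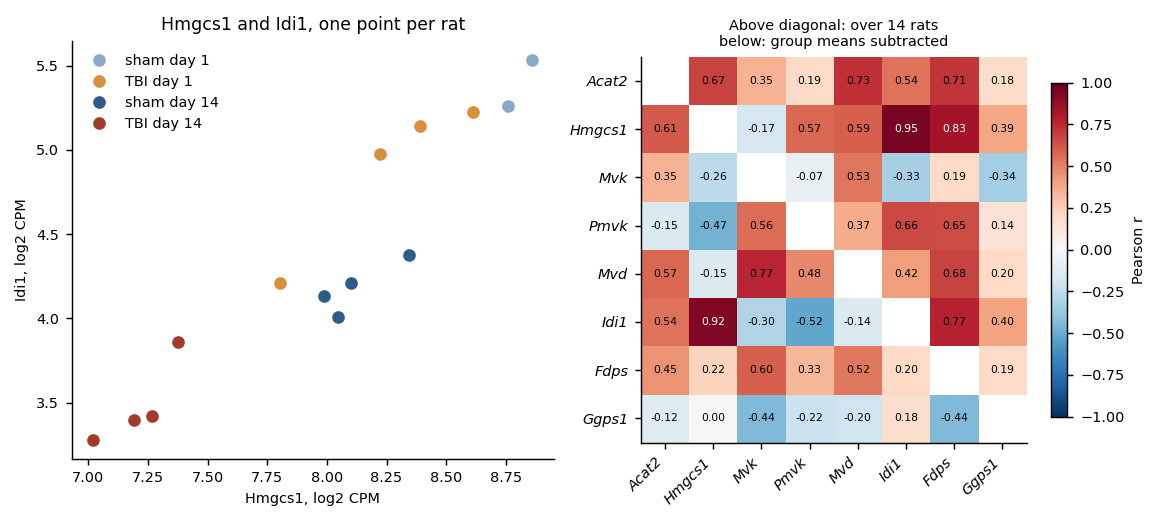
Left, log2 CPM of Hmgcs1 (horizontal) against Idi1 (vertical) with a point per rat coloured by group; right, Pearson r of each pair of members, above the diagonal over 14 rats and below it after subtraction of group means. The points rise along a line from TBI day 14 at the lower left to sham day 1 at the upper right (r 0.95), and the Hmgcs1 and Idi1 square stays dark below the diagonal (0.92).

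The mean of the 8 scaled members was compared with every other tested gene over the 14 rats. The 10 genes most like it by Pearson r were Tcerg1l (0.89), Ing1 (0.89), Msmo1 (0.87), Ndufa8 (0.87), Idh3B (0.87), Nab1 (0.85), Cyp51 (0.85), Timm8b (0.85), Ndufa9 (0.84) and Lias (0.84). Msmo1 and Cyp51, which both take methyl groups off the sterol ring, belong to the sterol arm downstream of Fdps. After subtraction of group means they included RGD1565641 (0.93), RT1-CE6 (0.93), Fdft1 (0.92), RGD1562987 (0.91), Clns1a (0.91), Hsbp1 (0.91), Polr2j (0.89), Mrpl17 (0.89) and Tomm40 (0.88). Fdft1 is squalene synthase, which takes the farnesyl pyrophosphate made by Fdps into sterols. These ranks were not recomputed without the 3 rats high in choroid plexus markers.

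The genes on either side of the arm were counted from lists written from general knowledge. Of 13 sterol arm genes, which lead on from farnesyl pyrophosphate, 5 were called down and 0 up at day 14. The share over all tested genes was 0.365% down and 4.07% up. All 13 had a log2 fold change below 0, and the median was -0.58, beside -0.49 for the 8 members and -0.03 for all tested genes. Cyp51 fell by 0.82 on the log2 scale (adjusted p = 0.00483), Fdft1 by 0.70 (adjusted p = 0.00146) and Msmo1 by 0.68 (adjusted p = 0.0123); Sqle, squalene epoxidase, named after its value was seen, fell by 0.67 (adjusted p = 0.00185), all with edgeR. Without the 3 rats high in choroid plexus markers 2 of the 13 were called down and the median was -0.53. At day 1, 2 of the 13 were called down (among them Fdft1 at -0.43) and 1 up (Lbr at 0.69, a sterol reductase that is also a nuclear envelope protein), where 7.93% and 11.2% of all tested genes were called. Without the 3 rats this was 1 down and 0 up, and with limma-voom 2 down and 0 up. With only the compared groups fitted it was 0 in either direction, so the Lbr call was lost in each of these fits. A fit with the replicate number as a block gave 3 down and 0 up, and DESeq2 gave 2 down and 1 up.

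Of 14 genes of SREBP regulation and its targets, 3 were called down and 0 up at day 14. The share over all tested genes was 0.365% down and 4.07% up. The 3 genes included Insig1, which holds SREBP in the endoplasmic reticulum when sterols are plentiful (-0.69, edgeR adjusted p = 0.0479), and Srebf2 itself (-0.42, adjusted p = 0.0457). The list median was -0.19. Without the 3 rats high in choroid plexus markers 0 of the 14 were called, with a median of -0.20. DESeq2 called 4 down and 0 up, and only the compared groups fitted gave 3 down and 1 up. Limma-voom called 1 down, and a fit with the replicate number as a block called 2 down. At day 1, 2 were called down by edgeR, Stard4, a sterol carrier (-0.72, adjusted p = 0.0371), and Srebf2 (-0.58, adjusted p = 0.00820). The share over all tested genes at day 1 was 7.93% down and 11.2% up. The list median at day 1 was -0.35, with 12 of the 14 below 0, and it was -0.15 without the 3 rats. Limma-voom and DESeq2 each called 3 down, the fit with the replicate block called 4 down, and only the compared groups fitted gave 0.

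Upstream, 1 of 8 genes of acetyl-CoA supply and ketone body metabolism was called down at day 14, Acly, which makes cytosolic acetyl-CoA from citrate (-0.43, edgeR adjusted p = 0.0423). The share over all tested genes was 0.365% down and 4.07% up. The Acly call was lost without the 3 rats high in choroid plexus markers. Limma-voom, DESeq2 and the fit with the replicate block each called 1 of the 8 down, and only the compared groups fitted gave 2 down. Of 13 tested users of farnesyl and geranylgeranyl pyrophosphate (protein prenyltransferases, dolichol and ubiquinone enzymes), 0 were called at either day by edgeR, and DESeq2 called 0 at day 14 and 3 at day 1. Without the 3 rats edgeR called 1 down at day 1. Their median at day 14 was -0.06.

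**Figure D4:**
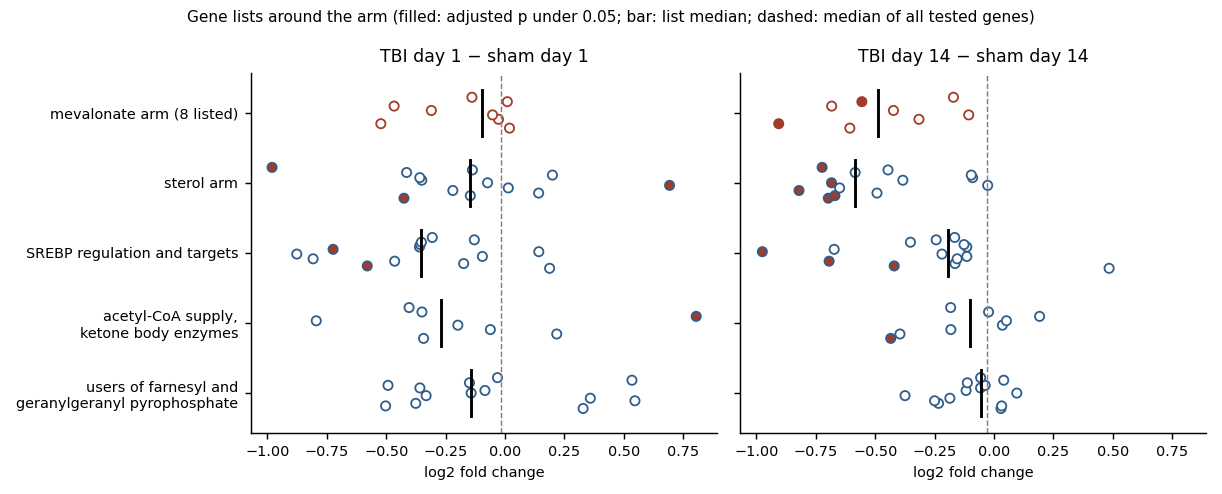
Log2 fold change (horizontal axis) of each gene of the mevalonate arm and of the 4 lists around it, TBI against sham at day 1 and at day 14, with filled points for an edgeR adjusted p under 0.05, black bars for list medians and a dashed line for the median of all tested genes. At day 14 the medians of the mevalonate and sterol arms lie at -0.49 and -0.58, and those of the other lists between -0.19 and -0.06.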

How the data were processed

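Polyadenylated RNA of 14 ipsilateral hippocampi was sequenced by the authors as 50-base single reads from a stranded kit, aligned to rn5 with STAR 2.4.2a and counted per UCSC gene with featureCounts 1.5.0. The deposited values are raw counts, used as deposited; the strand setting and the treatment of reads with several matches are not given in the sources used here. Reads carry no molecular identifiers. H3K4me3 peak lists of day 1 were not used, since their positions are on rn5 and the annotation at hand is on GRCr8.

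All 14 rats entered a single two-sided quasi-likelihood model (edgeR 4.0.16, R 4.3.3) in which each group had its own mean; genes were filtered with the default by-group rule and libraries scaled by TMM. The study fitted limma-voom, which is an alternative here (limma 3.58.1), as is DESeq2 1.42.0; other scaling, filters, a replicate block, a choroid plexus covariate and leaving out rats were also tried. Members, lists and alternatives were chosen with earlier results of these data known. Named genes are the 8 members, up to 4 called genes per list and comparison with the largest change, and the 10 genes most like the members; some of these are not reported here. Replicates differed by more than counting noise (chi-squared per degree of freedom 12.8 to 165 over pairs). The fit was tested on simulated counts.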

Additional observations from a re-analysis of the deposited data

Results flagged for a closer look

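In TBI day 1, Ggps1 stood at 4.03 log2 CPM in replicate 4, below the other 3 rats of the group by 0.868 of the range of the whole group. The same comparison was made for 24 sets of 4 rats (8 members in 3 groups), and this was the 1 that stood apart. Chance gives about 1 in 20 such sets.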

How the results depend on the processing

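At day 14 no alternative turned the direction of any of the 8 members, and 2 were called under limma-voom, median-of-ratios factors, no filter, at least 10 counts in every rat, the choroid plexus score as covariate, and with the 3 rats high in choroid plexus markers left out, an alternative chosen after seeing the data. The count was 4 with DESeq2 and with only the compared groups fitted, which both added Mvd and Idi1, 1 at an adjusted p under 0.01, and 1 to 3 without any 1 rat. The cause was not tested.

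At day 1, DESeq2 called 1 member and leaving out 1 rat called 0 to 1. Between the sham groups, leaving out 1 rat called 1 to 3 members. At an adjusted p under 0.01 the count was 1 between the sham groups and 1 for TBI day 1 against sham day 14.

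After subtraction of group means, correlations between rats of the same replicate number overlapped with those of other pairs. The r was -0.35 to 0.24 over 18 pairs of the same number (median 0.03, 5 over 0.1). It was -0.43 to 0.35 over 54 pairs of other numbers (median -0.03, 17 over 0.1). The subtraction makes the 2 sham rats of day 1 mirror images, so their pairs cannot inform on pairing. With the number as replicate block, 2 members (Hmgcs1 and Idi1) were called at day 1 and 3 at day 14. Under the block Acat2 turned to -0.18, Pmvk to 0.0054 and Fdps to -0.015 at day 1, and Acat2 to 0.0061 between the sham groups.

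Log2 fold changes near 0 turned elsewhere. At day 1 Mvk went to 0.061 with limma-voom, 0.016 with at least 10 counts, 0.39 with the choroid plexus covariate and 0.66 without the 3 rats. Pmvk went to 0.076 with the covariate and 0.069 without the 3 rats, and Fdps to -2e-04 with median-of-ratios factors. For the difference between days Ggps1 went to 0.19 and 0.32, and between the sham groups Mvd went to -0.059 and -0.15 and Fdps to -0.022 and -0.084, with the covariate and without the 3 rats.

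Leaving out 1 rat gave at day 1 -0.14 to 0.18 for Acat2, -0.50 to 0.67 for Mvk, -0.19 to 0.078 for Pmvk, -0.15 to 0.19 for Fdps and -0.48 to 0.31 for Ggps1. For the difference between days it gave -0.98 to 0.18 for Mvk, -0.18 to 0.084 for Pmvk, -0.33 to 0.084 for Mvd and -0.48 to 0.31 for Ggps1. Between the sham groups it gave -1.10 to 0.066 for Mvk, -0.16 to 0.26 for Mvd, -0.090 to 0.25 for Fdps and -0.33 to 0.46 for Ggps1, and for TBI day 1 against sham day 14 -0.052 to 0.053 for Ggps1. The lone sham rat that these fits leave at day 1 is assumed to vary like the other groups. A prior count of 0.5 moved no group mean beyond 1 SD. The H3K4me3 alternative was not run. With 2 sham rats at day 1, depth is not the only limit to its intervals, which also span both directions for 7 of the 8 members.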
